A study of Mus musculus with 10 samples.

Results

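FLAG resin background regions are stretches of chromatin that anti-FLAG M2 resin pulled down from mouse embryonic stem (ES) cells whether or not the cells carried a FLAG tag, and at which an anti-TET2 antibody gave no peak. The peaks of 8 ChIP-seq libraries on the 21 assembled chromosomes were merged wherever they shared at least 1 bp, which gave 79350 merged regions. A merged region was kept if it held a peak in all 4 resin libraries and in none of the 4 antibody libraries. The rule kept 3985 regions, or 5.02% of all merged regions. They were chosen by the authors' peak calls alone, so their presence in the resin lists and their absence from the antibody lists are a description and not a finding.

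The study mapped TET2 by 2 routes, each with its own control, and there were 2 libraries in each of 4 groups. FLAG-TET2 cells were Tet2fl/fl with a 2x-FLAG tag on TET2 expressed from its own locus, and parental cells were Tet2fl/fl without the tag. Both were precipitated with 20 µl of anti-FLAG M2 affinity gel for 3 h. Wild-type cells (Tet2fl/fl, no tag) and knockout cells (Tet2-/-, no tag) were precipitated with 1 µg of a rabbit polyclonal antibody to the TET2 N terminus, captured on protein G beads.

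All cells were grown in 15% serum with LIF, 3 µM CHIR99021 (a GSK-3 inhibitor) and 1 µM PD0325901 (a MEK inhibitor), and 300 µg of chromatin, fixed with 2 mM disuccinimidyl glutarate and 1% formaldehyde, went into each precipitation. The labels state neither how many clones the tagged and knockout lines represent nor whether replicates came from separate cultures, so a p-value over the lists measures only the spread between them, which may be technical. Peak lists hold no expression values, and the ES identity of the cells could not be checked from them. An input and an IgG library were not analysed here, and the deposited peak names carry the word IgG in all 8 lists, so the lists appear to share that control. The lists held between 2261 and 63612 peaks, and the read depth behind them is not known.

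As background, M2 is a monoclonal antibody against the short synthetic FLAG epitope, and the same resin in cells without the epitope measures what the reagent, the beads and the chromatin give on their own. TET2 is a dioxygenase that oxidises 5-methylcytosine and lacks the CXXC DNA-binding domain of its relatives TET1 and TET3. Several of the sequences below carry words of RE1, the long composite element bound by REST, a repressor that keeps neuronal genes silent in cells outside the nervous system and is present in ES cells.

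Sequences could be read only where a region met a start site, since the sequence table used here covers 250 bases before and 50 bases after each RefSeq start site (GRCm38.p6). Of the 3985 regions, 224 shared at least 1 base with such a window, and 41 had their summit (the mean over the 4 resin lists) at least 30 bases inside one. The 8 sequences that follow are centred on the summit, except that bases past the start site were left out. They hold the words CAGCACC or GGACAG, the left and the right conserved word of RE1, in capitals. Each is printed on the strand that reads these words forward. The lines run from the strongest of these 8 regions to the weakest. They are a selection from the 25 regions with either word within 30 bp of the summit. Regions at Slc39a3, Gm31317 and G6bos, among others, were stronger than the last line and are not printed. The genes of the 8 lines therefore do not stand for all 25.
Fbll1, chr11:35799016-35799076, strand +: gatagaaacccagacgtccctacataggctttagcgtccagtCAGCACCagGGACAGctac
Lhx3, chr2:26208252-26208312, strand -: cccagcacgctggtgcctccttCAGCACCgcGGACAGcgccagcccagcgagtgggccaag
LOC108167704, chr1:115684694-115684754, strand -: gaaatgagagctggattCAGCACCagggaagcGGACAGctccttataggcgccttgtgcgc
Scg2, chr1:79440027-79440069, strand +: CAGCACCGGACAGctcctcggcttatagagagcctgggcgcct
Osbp2, chr11:3774776-3774836, strand +: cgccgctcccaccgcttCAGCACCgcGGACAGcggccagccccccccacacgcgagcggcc
Glra2, chrX:165327407-165327467, strand +: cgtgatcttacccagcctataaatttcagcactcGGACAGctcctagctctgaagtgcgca
Syn1, chrX:20921098-20921158, strand -: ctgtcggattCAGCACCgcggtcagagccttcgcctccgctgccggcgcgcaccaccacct
Robo2, chr16:75447323-75447383, strand -: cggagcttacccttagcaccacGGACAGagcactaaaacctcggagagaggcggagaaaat

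Of the 41 readable summits 7 held both words, and in 6 of them the left word came before the right one on the same strand, as in the first 5 lines. The exception was a summit nearest to Gjd2, a gap junction gene, where the words overlapped in the opposite order. In the Fbll1, Lhx3 and Osbp2 sequences 2 bases separated them, in the LOC108167704 sequence 8 bases did, and in the Scg2 sequence they touched. Scg2 encodes a secretogranin of neuroendocrine granules, Lhx3 a homeodomain factor of motor neurons and the pituitary, Glra2 a glycine receptor subunit, Syn1 the synaptic vesicle protein synapsin and Robo2 an axon guidance receptor. The summits lay 162 bp (Fbll1), 33 bp (Lhx3), 70 bp (LOC108167704), 13 bp (Scg2), 138 bp (Osbp2), 44 bp (Glra2), 210 bp (Syn1) and 60 bp (Robo2) upstream of the start site.

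At Fbll1 the authors' fold enrichment was 75.5 and 48.7 in the 2 FLAG-TET2 libraries and 80.9 and 41.1 in the 2 parental libraries. At Lhx3 the same folds were 26.9, 17.8, 27.7 and 19.5, and at Scg2 they were 42.7, 29.8, 41.5 and 25.6. At Robo2 they were 15.2, 10.9, 29.7 and 17.5. Within each list, the Fbll1, Lhx3 and Scg2 values lay above the median of all 3985 regions, and the Robo2 value lay above it in the parental lists and below it in the FLAG-TET2 lists.

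The words were found by ranking, after the values had been seen, every 8-letter word of the 259 promoter windows that share a base with a FLAG resin background region against all 32851 windows, on both strands. Among the leading words, 3 kinds recurred. CGCCATCT stood in 10.8% of the member windows against 1.95% of all windows, and the overlapping GCCATCTT in 11.6% against 2.75%. The latter stood in 4.51% of the windows with any merged region and in 6.52% of those of regions with a peak in all 4 resin lists and an antibody list, and among member windows in 3 of 80 (3.75%) with regions above the median rank and 27 of 179 (15.1%) with regions below it. These words belong to the type of word that the zinc finger factor YY1 is known to bind. TCAGCACC stood in 7.34% against 1.65% (1.76% of windows with any merged region), GCGGACAG in 5.02% against 0.880%, and CTGACGTC, which overlaps the cyclic AMP response element word TGACGTCA, in 5.79% against 1.25%. TGACGTCA itself stood in 6.18% of member windows and in 3.35% of windows with any merged region. GGACAGCG, which holds the right RE1 word, stood in 5.41% and 2.43%. In windows of regions with a peak in all 4 resin lists and an antibody list, these 2 words stood in 4.30% and 2.90%. A match of letters is a description of these windows and not of a bound factor.

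The RE1 words sat at the summits of many of the readable regions. They had been picked from promoter windows of these same regions, so their shares here are a description and not an independent test. Within 30 bp of the summit, GGACAG stood in 21 of the 41 readable regions (51.2%), CAGCACC in 11 (26.8%), either word in 25 (61.0%) and both in 7 (17.1%). In the same length taken from the middle of all 32851 promoter windows, either word stood in 5.90% and both in 0.0974%. At the readable summits of the merged regions that are not FLAG resin background, taken as means over all lists with a peak, either word stood in 286 of 4056 (7.05%). Of the 41 matches of GGACAG in windows that hold a summit, 27 lay within 30 bp of it, at a median distance of 9.5 bp over all matches, and 12 of 19 matches of CAGCACC did. Of the 5 matches of TGACGTCA 2 did. None of the 5 matches of GCCATCTT did, at a median of 133 bp, and 0 of 41 summits held that word, which allows a share of up to 7.32%.

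**Figure D1:**
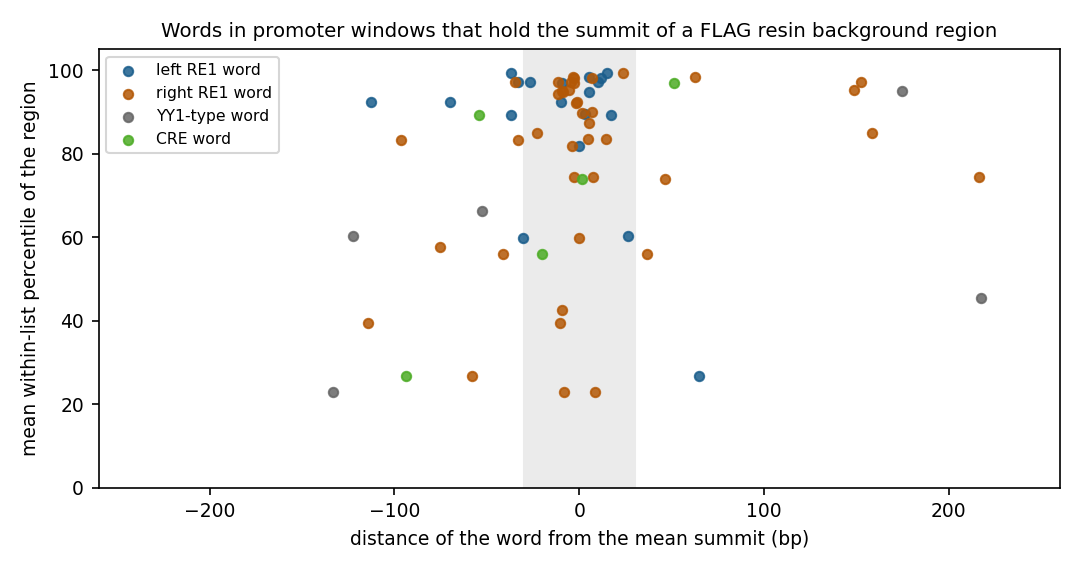
Each point is 1 match of a word in a promoter window that holds the summit of a FLAG resin background region, with its distance from the mean summit in bp (x axis) and the mean percentile of that region by −log10 q within the 4 resin lists (y axis), and the grey band spans 30 bp on each side. The 2 RE1 words crowd into the band, with 27 of 41 and 12 of 19 matches, while the 5 YY1-type matches lie outside it.

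The share with either RE1 word was lowest in the weakest regions. In 4 equal groups of regions by mean percentile, from the strongest to the weakest, 9 of 11, 6 of 7, 5 of 6 and 5 of 17 readable summits held either word. Of the 7 summits with both words, 6 lay above the median rank. Other classes of region gave lower shares, but the words had been picked in windows of FLAG resin background regions, which favours that class. The mean summit was also taken over other lists. For common TET2 regions these were the FLAG-TET2 and wild-type lists, and for antibody background the 4 antibody lists. For regions with a peak in all 8 lists, and for the other merged regions, they were all lists with a peak. A mean over 2 reagents may lie away from the summits themselves, so the shares are not strictly alike. Common TET2 regions, called in every FLAG-TET2 and wild-type list but in no control list, held either word at 8 of 146 summits (5.48%). Regions with a peak in all 8 lists held either at 4 of 60 (6.67%). Antibody background regions, with a peak in all 4 antibody lists and in no resin list, held either at 2 of 50 (4%).

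Regions with a peak in all 4 resin lists and in 1 or more antibody lists held either word at 84 of 529 summits (15.9%). Their summits were read in the resin lists, as for FLAG resin background. The E-box word CACGTG stood at 15 of 50 antibody background summits (30.0%), 0 of 41 FLAG resin background summits and 4.34% of the other merged regions. The Sp1-type word GGGCGG stood at 3 of 41 FLAG resin background summits (7.32%), against 28.2% of the other merged regions. The AP-1 word TGACTCA and the SOX-type word CTTTGT were at 0 of 41, against 0.567% and 2.88% of the other merged regions. A count of 0 of 41 allows a share of up to 7.32%, so these zeros do not set the regions apart from the other merged regions. The readable summits are 41 of 3985 and all lie at start sites, so these shares do not describe the other regions.

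The promoter windows that share a base with FLAG resin background regions were less rich in G and C than those of merged regions at large. Their median GC content was 56.7%, against 62.7% for the windows with any merged region and 52.7% for all windows. The median observed over expected CpG ratio was 0.664 in member windows, 0.791 in windows with any merged region and 0.384 in all windows. Windows of common TET2 regions were similar to member windows, with a median GC content of 58% and a ratio of 0.608, so the trait is not particular to FLAG resin background. Windows with regions above the median rank had a ratio of 0.479, and those with regions below it 0.747.

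By strength, FLAG resin background regions reached the top of all 4 resin lists. The highest fold of each list was reached in a region inside Celf4, which encodes an RNA-binding protein of neurons (chr18:25667825-25668720). Its fold was 102.0 and 74.7 in FLAG-TET2 replicates 1 and 2, and 97.5 and 79.2 in parental replicates 1 and 2. Other peaks, not all of them in FLAG resin background regions, tied with it in FLAG-TET2 replicate 2 and in parental replicate 1. Over all 3985 regions the median fold was 17.5 in FLAG-TET2 replicate 1 (range 2.83 to 102.0) and 11.1 in replicate 2 (3.07 to 74.7). It was 20.9 in parental replicate 1 (3.40 to 97.5) and 12.5 in parental replicate 2 (3.29 to 79.2). The other peaks of these lists had medians of 6.85, 6.06, 6.74 and 6.31, in the same order. A call in all 4 resin lists itself favours strong peaks, so this contrast follows in part from the rule. Folds from separate lists are the authors' own and rest on unknown depths, and are given side by side without ranking the libraries.

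The 20 leading regions by mean percentile of −log10 q were nearest, among others, to Celf4, Trappc9, Gm51483, Immp2l, Kcnk9, Plppr2, Scgb2b21, Esp23, Sntg1, Epha8, Matn1, Galr1, Nsf, Kif13b, Rbfox3, Rtbdn, Tas1r3, Cyp3a25 and Scgb2b4-ps. A nearest gene is a position and says nothing of regulation. The Trappc9 region (chr15:72689461-72690360), inside the gene of a vesicle transport subunit, had folds of 101.2, 73.6, 97.5 and 78.3 in the 2 FLAG-TET2 and the 2 parental libraries. The Kcnk9 region (chr15:72568189-72569102), 19.6 kb from a potassium channel gene on the same chromosome, had 98.2, 73.6, 95.1 and 76.4. Distances varied widely, and the Immp2l region (chr12:42972590-42973843) lay 1017 kb from any protein-coding gene, with folds of 99.0, 73.9, 97.5 and 77.6. The Plppr2 region (chr9:21949854-21950978) lay 0.947 kb from the end of a gene for a neuronal membrane phosphatase-related protein, with folds of 92.4, 67.2, 88.5 and 72.2. The Gm51483 region (chr7:60974043-60974918) had 100.9, 73.3, 97.1 and 77.9.

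Among the next regions, the Scgb2b21 region (chr7:33543177-33543993) had folds of 83.2, 71.3, 97.1 and 76.7, and the Esp23 region (chr17:39106834-39107843) 100.9, 69.9, 96.7 and 74.5. The Sntg1 region (chr1:8122903-8123673) had 97.5, 69.9, 95.1 and 74.5. All 9 of these regions had folds far above the median of each list, which follows largely from their being picked by rank in these same lists. At the other end of the ranking, the 5 lowest regions were nearest to Adgre5, Pou3f1, Pign, Shcbp1 and Mxra7. The Mxra7 region (chr11:116827732-116828116) had folds of 5.44, 4.64, 5.04 and 5.07, and the Adgre5 region (chr8:83772092-83772303) 3.59, 3.82, 5.56 and 3.35.

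**Figure D2:**
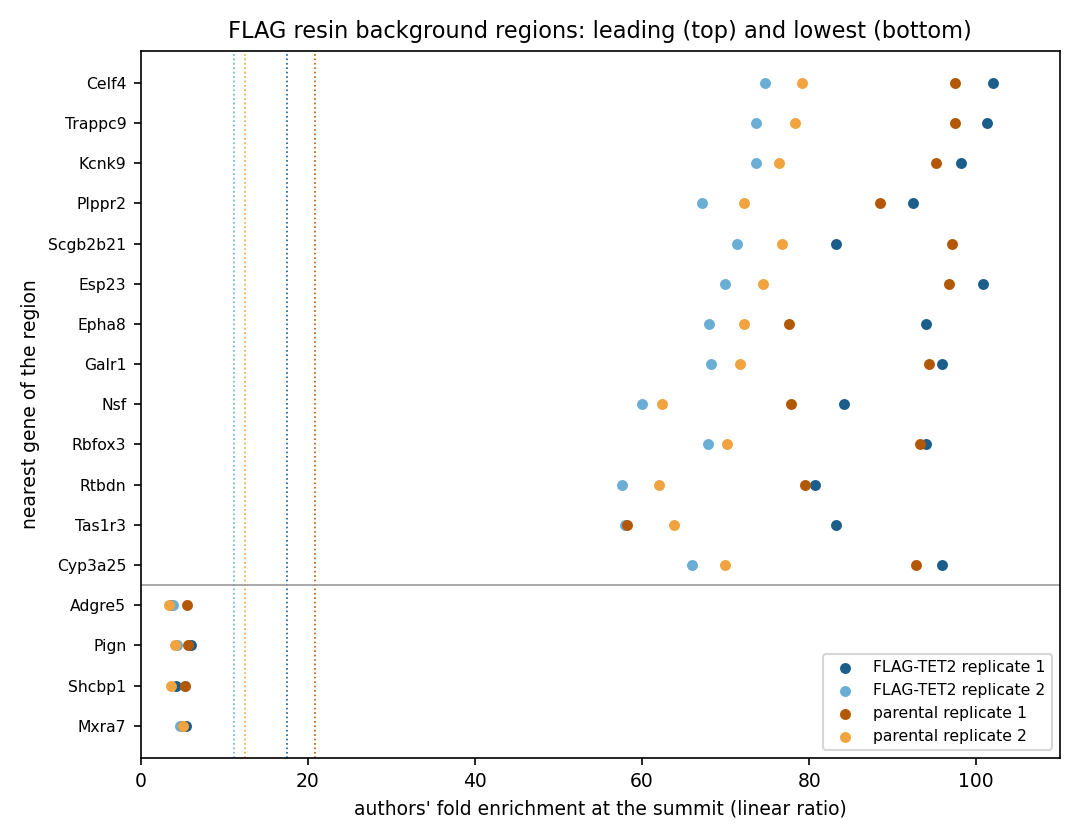
The points are the authors' fold enrichment (x axis, linear) of those of the 20 leading and the 5 lowest FLAG resin background regions that lie within 50 kb of a gene (13 and 4 rows, named by that gene), in the 2 FLAG-TET2 and the 2 parental libraries. Dotted lines mark the median over all 3985 regions in each library, from 11.1 to 20.9. In each library all leading rows lie above its line and all lowest rows below it, which follows largely from the ranking in these same libraries.

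The regions held most of the leading peaks of the resin lists, in tagged and untagged cells alike. Of the 100 leading peaks of each list by −log10 q, 75 and 76 lay in FLAG resin background regions in FLAG-TET2 replicates 1 and 2, and 76 and 79 in parental replicates 1 and 2. The rest of those 100 lay in regions with a peak in all 4 resin lists and in at least 1 antibody list. Common TET2 regions held 0 of the 100 leading peaks of either FLAG-TET2 list, against 24 of the 100 leading peaks of wild-type replicate 1 and 16 of wild-type replicate 2. Of the 1000 leading peaks, FLAG resin background held 760 and 772 in the FLAG-TET2 lists and 771 and 773 in the parental lists, while common TET2 regions held 3 and 2 in the FLAG-TET2 lists.

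Further down the FLAG-TET2 lists the shares drew together. Of the 5000 leading peaks, FLAG resin background held 2221 and 2321 and common TET2 regions 1099 and 966. Of all peaks in a list, FLAG resin background held 6.36% and 14.3% in FLAG-TET2 replicates 1 and 2, and 11.1% and 39.9% in parental replicates 1 and 2. The low share in FLAG-TET2 replicate 1 goes with its 63612 peaks and the high share in parental replicate 2 with its 10132.

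**Figure D3:**
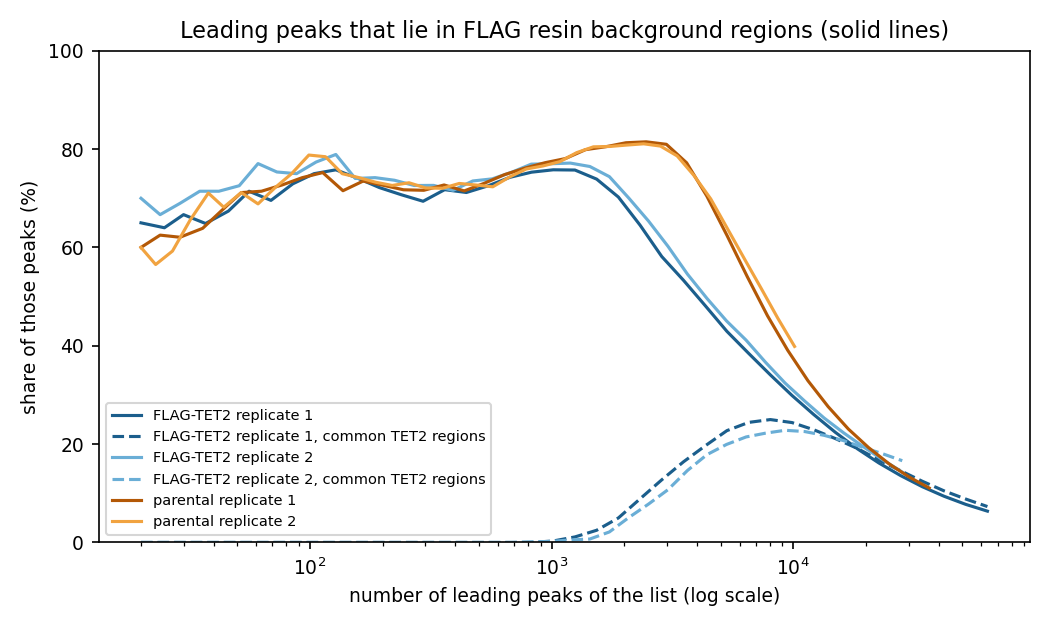
For each resin library, the solid line gives the share in percent (y axis) of its leading peaks that lay in FLAG resin background regions, as the number of leading peaks grows (x axis, log scale), and the dashed lines give the share in common TET2 regions for the 2 FLAG-TET2 libraries. The solid lines stand between 75% and 79% at 100 peaks and between 76% and 77.3% at 1000 peaks in all 4 libraries, where the dashed lines are at or below 0.3%.

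The 4 libraries placed their summits close together. The spread of the 4 summits within a region had a median of 22 bp, and 89.1% of regions had all 4 within 50 bp. The spread widened as rank fell, from a median of 15 bp in the strongest to 20, 26 and 37 bp in the others of 4 equal groups by mean percentile. Width moved the other way, from a median of 535 bp in the strongest group to 347, 277 and 252 bp. Over all regions the median width was 329 bp (157 to 2377), against 243 bp for all merged regions, 434 bp for common TET2 regions and 1048 bp for the 253 regions with a peak in all 8 lists.

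To read the pattern in lists that did not choose the regions, the rule was applied to the lists of 1 replicate number and read in those of the other. Regions chosen in the replicate 2 lists numbered 4838. Of these 99.5% had a peak in FLAG-TET2 replicate 1 and 99.8% in parental replicate 1, where all merged regions had 77.3% and 41.7%. In wild-type replicate 1 the share was 17.0% against 45.5% of all merged regions, and in knockout replicate 1 it was 0 against 2.74%. Regions chosen in the replicate 1 lists numbered 14290, and 39.4% had a peak in FLAG-TET2 replicate 2 and 34.1% in parental replicate 2, against 31.5% and 11.6% of all merged regions. They had a peak in wild-type replicate 2 and knockout replicate 2 in 0.616% and 0.623%, against 22.0% and 14.1%. The choice had already left out regions with a peak in wild-type replicate 1, the longest antibody list, so these low shares follow in part from it. With each list cut to its 2259 leading peaks, the shares read in the resin lists were between 93.1% and 98.6% in both directions, and those in the antibody lists were at most 0.389%. The matching shares of all merged regions in the cut lists are not given here.

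**Figure D4:**
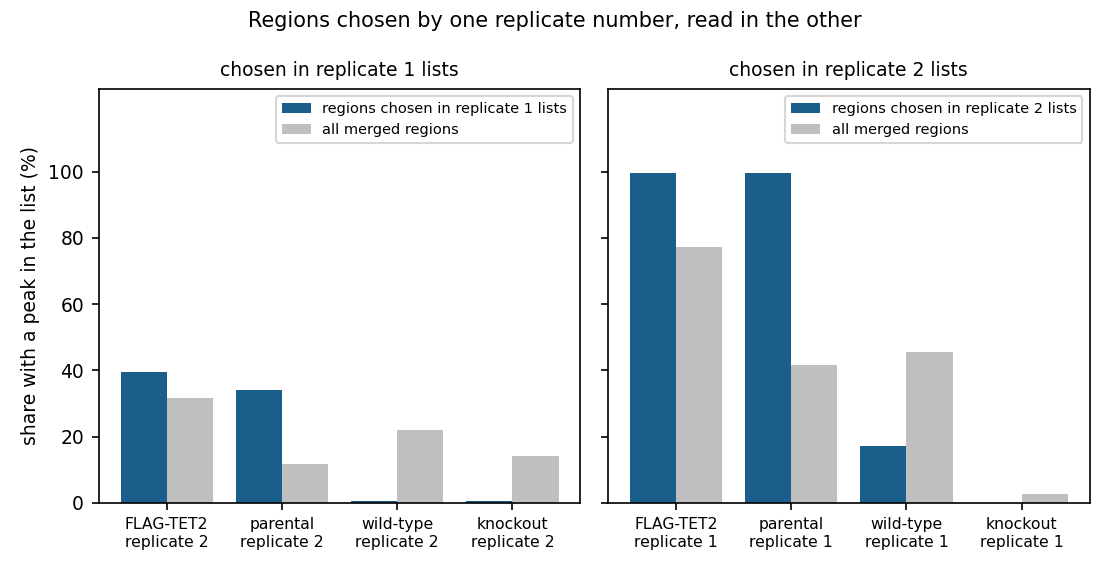
Bars give the share in percent (y axis) of regions with a peak in each library of the replicate number that was not used to choose them (blue), beside the share of all merged regions with a peak there (grey). Regions chosen in the replicate 2 lists had a peak in 99.5% and 99.8% in the replicate 1 resin libraries, and those chosen in the longer replicate 1 lists in 39.4% and 34.1% in the replicate 2 resin libraries, with low shares in the antibody libraries in both panels.

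The choice was also made without the control lists, and then from the control lists alone. Requiring a peak in FLAG-TET2 replicates 1 and 2, and none in the wild-type lists, gave 6915 regions, and 80.7% and 58.0% of them had a peak in parental replicates 1 and 2. In knockout replicates 1 and 2, read after regions with a wild-type peak had been left out, the shares were 0 and 0.680%. In the reverse direction, the 7570 regions with a peak in both parental lists and in neither knockout list had one in 98.3% and 86.1% in FLAG-TET2 replicates 1 and 2, and in 34.3% and 22.9% in wild-type replicates 1 and 2. The share in wild-type replicate 2 was near the 22.0% of all merged regions.

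Some regions lay just outside the rule. In all, 8001 merged regions had a peak in all 4 resin lists, and 3151 of them had a peak in 2 or more antibody lists. Another 865 had a peak in exactly 1 antibody list, which was wild-type replicate 1 in 819. The 5 strongest of these were nearest to Vstm2l, Nphp4, Cyb5r4, Ankrd13b and Rabep2. The Vstm2l region (chr2:157912927-157913813) had resin folds of 100.5, 72.5, 97.5 and 77.6 and a fold of 5.50 in wild-type replicate 1, and the Rabep2 region (chr7:126426984-126427685) had 55.9, 46.4, 80.1 and 46.8 with 7.05 in wild-type replicate 1. On the other side, 2426 regions had a peak in exactly 3 resin lists and in no antibody list, and the missing list was parental replicate 2 in 1555 and FLAG-TET2 replicate 2 in 842. The 5 strongest of these were nearest to Vopp1, Lekr1, Man1a, Slitrk1 and Dse, and the Vopp1 region (chr6:57801281-57801517) had folds of 17.8 and 10.9 in the FLAG-TET2 libraries and 15.8 in parental replicate 1.

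By position, 460 FLAG resin background regions (11.5%) came within 1 kb of either end of the span of a protein-coding gene, where 22.3% of all merged regions did. The exact 95% interval of the share was 10.6% to 12.6%, and such intervals cover counting error only. The share was 10.0% for common TET2 regions, 37.6% for antibody background and 80.6% for regions with a peak in all 8 lists. The share depended on 1 library, since without wild-type replicate 1 the rule kept 4836 regions, of which 21.9% lay at gene ends. With each list cut to its 2259 leading peaks, 1653 regions met the rule and 18.2% of them lay at gene ends. The share of all merged regions under these settings is not given here, so whether that of FLAG resin background stays below it cannot be said. Within 1 kb of a RefSeq start site lay 10.7% of the regions, against 21.3% of all merged regions, with chromosome 18 not analysed here for start sites. Gene spans were overlapped by 51.9%, against 56.0% of all merged regions, and 20.6% lay more than 50 kb from any protein-coding gene, against 16.3%.

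The share at gene ends did not run evenly with rank. It was 12.2% in the strongest of the 4 rank groups, 7.83% and 7.03% in the middle groups, and 19.1% in the weakest. Over the 8 whole lists, 24.5% and 35.0% of peaks lay at gene ends in FLAG-TET2 replicates 1 and 2 and 34.3% and 41.8% in parental replicates 1 and 2. The antibody lists had 34.9% and 41.4% in wild-type and 49.4% and 43.0% in knockout. The groups overlapped. The resin lists averaged 33.9% ± 7.10 and the antibody lists 42.2% ± 5.96 (SD, n = 4 each), a difference of -8.32 percentage points with p = 0.143 in a two-sided exact permutation test over 70 arrangements, which can give no p below 0.0286. With each list cut to its 2259 leading peaks the difference was -18.6 points, with that smallest p of 0.0286 in the same exact permutation test.

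**Figure D5:**
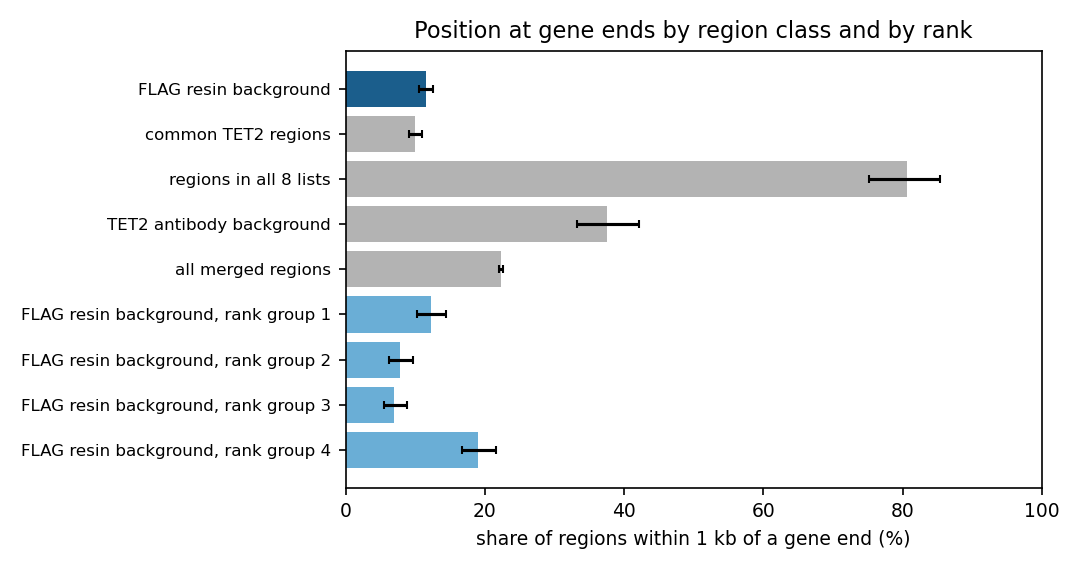
Bars give the share in percent of regions at gene ends (within 1 kb), for FLAG resin background, 4 sets for comparison, and 4 equal groups of FLAG resin background by mean percentile (group 1 the strongest), with exact 95% intervals that cover counting error only. FLAG resin background stands at 11.5%, close to the 10.0% of common TET2 regions and below the 22.3% of all merged regions.

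The strongest regions at gene ends were nearest to Plppr2, Rtbdn, Tas1r3, Gprin1, Cd300e, Neurod4, Celsr3, Fbll1, Sst and Acta1. Several are genes of neurons or endocrine cells. Gprin1 encodes a neurite outgrowth protein, Neurod4 a neurogenic basic helix-loop-helix factor, Celsr3 an axon guidance cadherin, and Sst the hormone somatostatin. The Celsr3 region (chr9:108825688-108828064) was the widest of all, at 2377 bp, with folds of 49.2 and 35.4 in the FLAG-TET2 libraries and 46.0 and 36.9 in the parental libraries. The Gprin1 region (chr13:54749263-54751437) measured 2175 bp and had 73.2, 53.3, 71.2 and 56.6. The Neurod4 region (chr10:130279724-130280386) had 84.6, 48.1, 90.1 and 61.8, and the Sst region (chr16:23890107-23890691) 60.6, 37.4, 65.2 and 40.1. Not all were neuronal, since Cd300e encodes a myeloid receptor, Tas1r3 a taste receptor and Acta1 skeletal muscle actin. The Acta1 region (chr8:123890946-123891702) had 66.4, 32.8, 69.4 and 52.0.

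By gene, 2558 of the 16819 protein-coding genes that were nearest to any merged region within 50 kb (15.2%) were nearest to a FLAG resin background region. Long genes were more often among them, at 36.0% of the longest 10% of genes and 12.9% of the others. The 10 genes with the most such regions were Rbfox3, Dpp6, Cdh13, Camta1, Asic2, Rbfox1, Rhbdl3, Crtac1, Srrm4 and Grik3. Rbfox3 encodes the neuronal splicing factor known as NeuN and had 10, of which 9 lay inside its 422 kb span. Dpp6, a potassium channel subunit, had 8 in 910 kb, and Cdh13, an adhesion molecule of the cadherin family, 7 in 1185 kb. Srrm4 encodes a splicing regulator that acts on the REST transcript in neurons, and it had 5 within 153 kb. Rhbdl3 had 5, of which 2 lay inside its 55.5 kb span.

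The list of neuronal adhesion and synapse genes, which are long, had 16 of its 22 members (72.7%) nearest to a FLAG resin background region, beside the 36.0% of the longest 10% of genes. It also takes in other long genes, such as Sox6 and Macrod2. Length was not matched within the longest 10%, so these shares do not show an excess beyond length. The leading region of Cdh13 (chr8:119258435-119259225) had folds of 67.9 and 52.9 in the FLAG-TET2 libraries and 77.3 and 55.9 in the parental libraries. That of Dab1, an adaptor of reelin signalling, had 49.3, 34.6, 48.6 and 31.7, and that of Cntnap2, a neurexin relative, 53.1, 30.1, 51.6 and 31.4. Nrxn3, a presynaptic neurexin, had 37.7, 22.2, 36.9 and 20.9.

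A list of 28 genes known to carry RE1, drawn up after these values had been seen and so no support of its own, had 16 genes (57.1%) nearest to such a region, beside 15.2% of all genes. Its 4 strongest regions were at Celsr3, described above, L1cam, Tubb3 and Npas4. The L1cam region (chrX:73869332-73869880), in a gene for a neural adhesion molecule, had folds of 53.0 and 37.6 in the FLAG-TET2 libraries and 54.0 and 52.1 in the parental libraries. The Tubb3 region (chr8:123414101-123414720), in a gene for neuronal tubulin, had 69.0, 45.6, 69.0 and 52.2. The Npas4 region (chr19:4988546-4989612), in a gene for a transcription factor induced by neuronal activity, had 28.2, 20.5, 23.4 and 24.1.

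Each list of ES cell state genes had 3 genes with such a region, beside the 15.2% of all genes. Core pluripotency genes had 3 of 11 with such a region (27.3%), naive state genes 3 of 14 (21.4%), formative and primed genes 3 of 12 (25%) and DNA methylation genes 3 of 12 (25%). The highest were Lin28a, an RNA-binding regulator of let-7, and Dppa3, a factor of the maternal germline. The Lin28a region (chr4:134020271-134021504) lay 1.07 kb from the gene and had folds of 36.3, 25.7, 36.0 and 27.9, and the Dppa3 region (chr6:122659365-122660157) lay 29.1 kb away and had 66.7, 46.4, 70.8 and 46.6. The Pou5f1 region (chr17:35506804-35507712), in the gene of the pluripotency factor OCT4, was weak, with 10.6, 5.77, 7.35 and 6.0. The Tet3 region (chr6:83453714-83454053), in the gene of another TET dioxygenase, had 22.6, 12.6, 21.9 and 13.3. At Tet2 itself 14 merged regions lay nearest, and 0 were FLAG resin background. With 5.02% of all merged regions in that class, 0 of 14 says little about this gene.

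The counts that follow stand beside the 15.2% of all genes. They were not matched for gene length, and the longest 10% of genes had 36.0%. Among the other lists, housekeeping genes had 1 of 10, at Actb, and fibroblast and feeder genes 3 of 10, at Thy1, Fn1 and Col1a2. Among families named by the start of the symbol, potassium channel genes (Kcn) had 21 of 86 (24.4%), protocadherins 12 of 54 (22.2%) and collagens 9 of 39 (23.1%). Solute carriers had 55 of 349 (15.8%), zinc finger genes (Zfp) 55 of 377 (14.6%), olfactory receptors 31 of 280 (11.1%), keratins 4 of 36 (11.1%) and vomeronasal receptors 7 of 101 (6.93%). Hox genes had 1 of 30 (3.33%).

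Across chromosomes the share of merged regions that were FLAG resin background ran from 3.07% on X (40 regions) to 5.90% on chromosome 8, with 0 of 29 on Y. The nearest merged region with an antibody peak lay at a median of 18.1 kb, and 8.81% of the regions had one within 1 kb. Most stood alone, since 319 of them (8.01%) fell into 156 runs of neighbours under 10 kb apart. The longest runs held 3 regions each, and the 5 with the widest span lay at Rbfox3 (15.3 kb), Pura (15.1 kb), H2-D1 (11.9 kb), Stk32c (11.6 kb) and Rhbdl3 (6.11 kb).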

How the data were processed

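Bowtie2, MACS2, Trimmomatic, DiffBind, DESeq2 and the mm10 build are named in the submitters' processing notes, with no versions or roles. Each deposited list held the peaks of 1 library. Its columns are as the authors deposited them: a score, a summit offset, a fold enrichment given as a ratio, and p and q on a −log10 scale. They served only to describe and rank peaks within a list. Peaks were merged and annotated with Python 3.11.15, pandas 2.3.3 and scipy 1.17.1, and the steps were tested on simulated data. Gene spans came from 21883 protein-coding RefSeq genes of GRCm38.p6, the assembly behind mm10. The percentile of a peak is its rank by −log10 q within its list, and regions were ranked by the mean over the 4 resin lists. No genome sequence was used here, so words were read in promoter windows alone.

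The regions and gene lists were chosen with earlier results of these data known, and the RE1, YY1-type and cyclic AMP words, the rank groups and the RE1 gene list after the values had been seen. Named were the 20 leading and 5 lowest regions, the 10 leading at gene ends, the genes with the most regions, up to 4 genes per list, the widest region, the longest runs, and 5 regions on each side just outside the rule. Sequences were chosen for their words, and only some of the 25 regions with either RE1 word at the summit were printed. One of the leading regions is not reported here. Read depth is not given in the sources used here. Whole lists, peaks with −log10 q of at least 5, summit windows, a wider merge, lists of equal length and lists left out were compared.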

Additional observations from a re-analysis of the deposited data

How the results depend on the processing

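The number of regions, 3985, stayed within 1.5 times under a −log10 q of at least 5, summit windows, merging up to 500 bp, and each list left out (3985 to 5541), and was 1653 with each list cut to its 2259 leading peaks, which by construction offers fewer peaks. Leaving a list out loosens the rule, so a rise in the number is built into that setting. The gene-end share of 11.5% was 16.9% with 200 bp summit windows, 9.25% with the wider merge, 18.2% with leading peaks, 8.76% and 27.0% at distances of 500 and 5000 bp, and 11.2% to 21.9% with a list left out. The gene-span share of 51.9% was 54.7% with summit windows, 55.7% with leading peaks and 51.2% to 57.9% with a list left out. The share of genes, 15.2%, was 13.3% within 10 kb and 11.3% by overlap. Chosen in replicate 1 lists, the shares with leading peaks were 95.5%, 98.1%, 0.227% and 0.284% in FLAG-TET2, parental, wild-type and knockout replicate 2, and chosen in replicate 2 lists 93.1%, 98.6%, 0.111% and 0.389% in the same order of replicate 1. With −log10 q of at least 5 the share was 36.3% in parental replicate 2 and 99.5% in parental replicate 1. The difference of -8.32 points in gene-end share between resin and antibody lists was -18.6 with leading peaks and -10.95 to -5.20 with a list left out. With labels permuted within the replicate number (replicate block), the difference stayed at -8.32 points with an exact permutation p of 0.111, where 36 arrangements allow no p below 0.0556. The shared numbers are not stated to pair cultures. The causes were not tested. The summit share of RE1 words, 61.0% of 41 regions, ran from 51.1% to 67.6% over settings chosen after seeing the data.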
